A study of Mus musculus with 4 samples.

Results

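The SR splicing factor genes described here are Srsf1, Srsf2, Srsf3, Srsf4, Srsf5, Srsf6, Srsf7, Srsf10, Srsf11 and Tra2b, 10 of the 20001 genes named in the N6-methyladenosine (m6A) site tables of day 6 mouse retinal organoids. They were chosen by gene symbol, and every table row carrying one of these symbols was taken. The 10 genes held 1563 of the 1076788 positions listed in any of the 4 libraries, and each gene was listed in every library. The samples came from an Rx:GFP retinal reporter line whose endogenous Mettl3 carries FKBP12F36V-HA at its C-terminus, a degron that lets the small molecule dTAG13 send the tagged protein to the proteasome. METTL3 catalyses most m6A formation in mRNA. The 2 untreated libraries (0 h) and the 2 libraries given 125 nM dTAG13 for 8 h all carry the tag, were differentiated in the same medium with AGN, were harvested together and have one batch label. The genotype field names Mettl3, Mettl4, Mettl5 and Mettl6 in the 4 samples in turn, whereas the series title and design name METTL3. The tables hold no measurement of METTL3 protein, whether the line is 1 clone is not stated, and nothing states whether the replicates were separate cultures, so p-values measure the spread between these libraries only.

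SR proteins bind RNA through RNA recognition motifs and recruit the splicing machinery through a domain rich in arginine and serine, and their phosphorylation governs where in the nucleus they act. Most SR genes limit their own output through poison exons, alternative exons whose inclusion brings in a premature stop codon and sends the transcript to nonsense-mediated decay. In the m6A pathway, the nuclear reader YTHDC1 is known to bring SRSF3 to methylated RNA and to oppose SRSF10 there. SR factors are expressed in dividing progenitors such as those of the early retina.

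The assay was GLORI, in which unmethylated A is deaminated and read as G while m6A is still read as A. The level of a position is its A reads as a percentage of A plus G reads. The tables list called positions only, with at least 15 A and G reads, at least 5 A reads and a level of at least 10%. Every listed position also had an adjusted p of 0.00401 or less in the authors' site test. The conversion rate of the gene enters that test. An unlisted position may lack m6A, miss one of these limits or have no reads. Over the SR genes the median listed position had 233.5 and 214 reads without dTAG13 and 163 and 242.5 reads with it, against 75 to 91 over all positions. The retinal progenitor markers Rax, Pax6, Six3, Six6, Lhx2 and Sox2 were all listed in every library, with a summed gene coverage of 2518 and 2991 without and 1867 and 2687 with dTAG13. The 5 pluripotency markers (Pou5f1, Nanog, Zfp42, Esrrb and Klf4) were listed too, with sums of 445 and 484 against 438 and 611, and the mesoderm marker T was listed in no library. Of the 4 retinal pigment epithelium, 4 neuron, 2 forebrain and 3 mesoderm and endoderm markers, 3, 2, 2 and 1 were listed in every library, with summed coverage of 254 to 345, 185 to 328, 432 to 635 and 26.0 to 120. The part of these other cell types in the results below was not tested.

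The SR genes together had 498 and 428 listed positions without dTAG13 and 427 and 436 with it. The untreated mean was 463 ± 49.5 and the dTAG13 mean 431.5 ± 6.36 (SD, n = 2 each), a gap smaller than the untreated SD. Their ratio was 0.932, and the ratio over all positions placed in genes was 0.714. Per gene, the median change in log2(listed positions + 1) was 0.05 over the 10 SR genes and -0.45 over all 12520 genes tested. The dTAG13 pair lay wholly below the untreated pair in 2 of the 10 SR genes, against 44.6% of all genes. It lay wholly above in 2 of the 10, against 4.53% of all genes.

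The SR genes differed in direction. Srsf5, which encodes a classical SR protein that binds exonic enhancers, had 13 and 16 listed positions without and 24 and 25 with dTAG13. The dTAG13 libraries were the higher pair and the groups did not overlap. The limma log2 change was 0.72 ± 0.23 (SE, n = 2 per group), with an unadjusted p of 0.0369 and an adjusted p of 0.249. Set against the library totals with edgeR's quasi-likelihood test, its log2 change was 1.24 (adjusted p 0.109). Srsf7, whose protein has a zinc knuckle and also takes part in mRNA export, had 31 and 18 without and 34 and 35 with dTAG13. Its groups did not overlap either, although untreated replicate 1 came close to the dTAG13 libraries, and the log2 change was 0.53 ± 0.34 (SE, limma adjusted p 0.432), or 0.97 with edgeR (adjusted p 0.0996). Without untreated replicate 2 the limma change was 0.15, and without untreated replicate 1 it was 0.90.

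Srsf10 and Srsf11 had fewer listed positions with dTAG13. SRSF10 is an SR-like protein that represses splicing when it is dephosphorylated, for example in mitosis and heat shock. Srsf10 had 101 and 100 listed positions without and 69 and 75 with dTAG13, separate and tight pairs. Its log2 change was -0.48 ± 0.21 (SE, limma adjusted p 0.305), but 0.0044 with edgeR against the library totals, a scale on which the median of all genes moved from -0.45 to -0.00098. Srsf11, which encodes the SR-related protein p54, had 85 and 56 without and 53 and 45 with dTAG13. The lower untreated value lay within 3 positions of the higher dTAG13 value, and the log2 change was -0.49 ± 0.31 (SE, limma adjusted p 0.418), or -0.04 with edgeR. Without untreated replicate 1 the limma change was -0.19, and without untreated replicate 2 it was -0.79.

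In the other 6 genes the groups overlapped. Srsf1, which encodes the prototype SR protein ASF/SF2, had 88 and 57 listed positions without and 73 and 73 with dTAG13. Srsf6 (the SRp55 protein) had 58 and 53 against 54 and 62, and Tra2b, a sequence-specific activator of exons rich in GAA repeats, had 37 and 47 against 43 and 44. These 3 genes had nearly equal group means. Srsf2, which encodes the nuclear speckle protein SC35, had 23 and 36 against 33 and 30. Srsf3, the gene of the smallest SR protein, had 33 and 24 against 26 and 24, and Srsf4, the gene of SRp75 with its long arginine-serine domain, had 29 and 21 against 18 and 23. With limma, 0 of the 10 SR genes and 0 of all 12520 genes passed an adjusted p of 0.05 (0% of genes in either direction), while 1 SR gene and 2320 genes in all (18.5%) had an unadjusted p under 0.05. With edgeR against the library totals 48 of the 12520 genes passed, 16 lower and 32 higher with dTAG13, and 0 of them were SR genes.

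**Figure D1:**
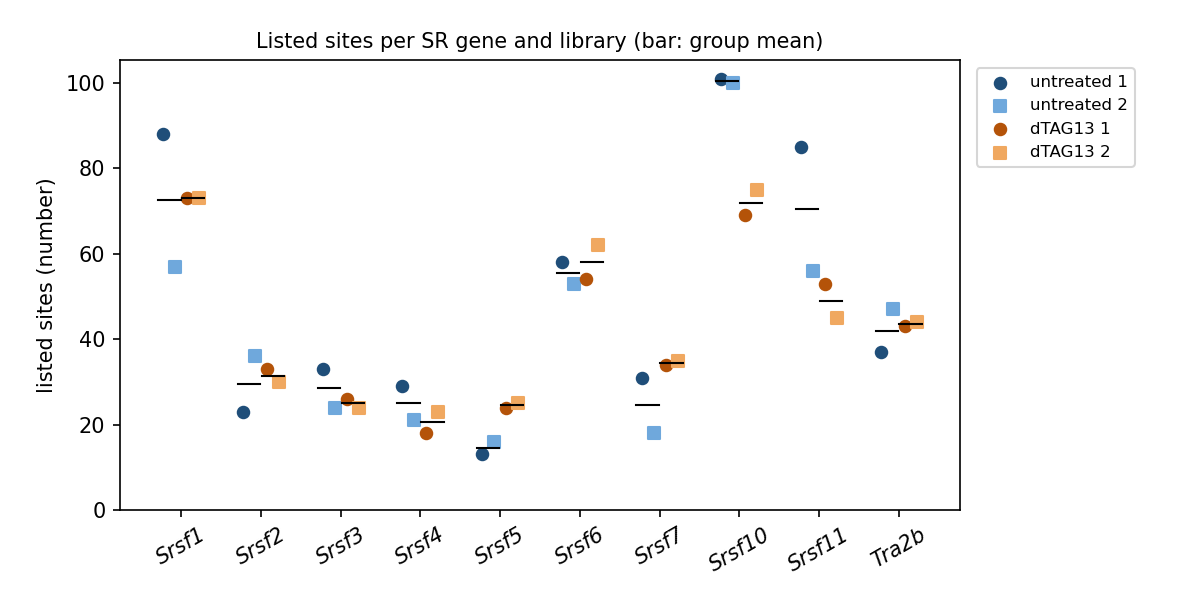
Number of listed positions (vertical axis) per SR gene (horizontal axis) in each library, with circles for replicate 1, squares for replicate 2 and a black bar at each group mean. Srsf5 and Srsf7 have the dTAG13 pair above the untreated pair, Srsf10 and Srsf11 have it below, and the other 6 genes overlap.

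Mean gene coverage was lower with dTAG13 in all 10 SR genes, but no gene passed the test. The deposited gene coverage is one value per gene and library. Its definition is not given, and in the SR genes its values behave as a mean of reads over positions (whole-number sums over, for example, 760 positions of Srsf7 in both untreated libraries). Relative to the median gene of each library, the log2 change was below 0 in all 10 SR genes and in 7095 of all 12520 genes. In the SR genes it ran from -0.75 to -0.20, with a median of -0.57 against -0.07 over all genes. On this median-centred scale the untreated pair was wholly above the dTAG13 pair in 9 of the 10 SR genes against 29.2% of all genes, and wholly below it in 0 of the 10 against 17% of all genes. With limma, 5 of the 10 SR genes (Srsf1, Srsf2, Srsf4, Srsf5 and Srsf7) and 1595 of all genes (12.7%) had an unadjusted p under 0.05. At an adjusted p of 0.05 the count was 0 of 10 and 0 of 12520 (0%), and the lowest adjusted p among the SR genes was 0.363. In bulk RNA, fewer cells of a type and less RNA per cell cannot be told apart.

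Srsf2, Srsf5, Srsf7, Srsf4 and Srsf1 had the 5 lowest values of this change, with standard errors that overlap those of the next genes. Srsf2 had a coverage of 1739 and 1946 in the untreated and of 783 and 1371 in the dTAG13 libraries, a log2 change of -0.75 ± 0.23 (SE, n = 2 per group, limma adjusted p 0.363). Srsf5 had 753 and 852 against 359 and 572, a log2 change of -0.74 ± 0.21. In both genes dTAG13 replicate 1 was the lowest library, and the groups were separate. Srsf7 had 938 and 1007 against 444 and 724 (-0.70 ± 0.21). Srsf4 had 247 and 213 against 114 and 162 (-0.67 ± 0.21). Srsf1 had 1116 and 1231 against 578 and 872 (-0.64 ± 0.20). These 5 genes shared the adjusted p of 0.363, and their uncentred ratios of dTAG13 to untreated means ran from 0.580 (Srsf5) to 0.618 (Srsf1).

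Srsf6 had a coverage of 566 and 620 without and 313 and 500.0 with dTAG13, a log2 change of -0.50 ± 0.21 (SE, limma adjusted p 0.394). Srsf3, the most highly covered of the 10 genes, had 2222 and 2486 against 1310 and 2119, a log2 change of -0.41 ± 0.21 (SE, limma adjusted p 0.450). RefSeq lists a pseudogene, Srsf3-ps, that also has rows of its own in the tables, so reads of Srsf3 could be shared with it and its values are uncertain.

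Srsf11, Srsf10 and Tra2b had the values nearest 0. Srsf11 had a coverage of 277 and 303 without and 186 and 276 with dTAG13 (log2 change -0.28 ± 0.20, SE). Srsf10 had 454 and 432.9 against 293 and 432.5 (-0.23 ± 0.20), so that its second dTAG13 library was level with its second untreated library. Tra2b had 257 and 192 against 162 and 205 (-0.20 ± 0.24), the one SR gene whose groups overlapped, and its change was 0.032 without untreated replicate 1. The limma adjusted p of these 3 genes lay at 0.579, 0.639 and 0.733.

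**Figure D2:**
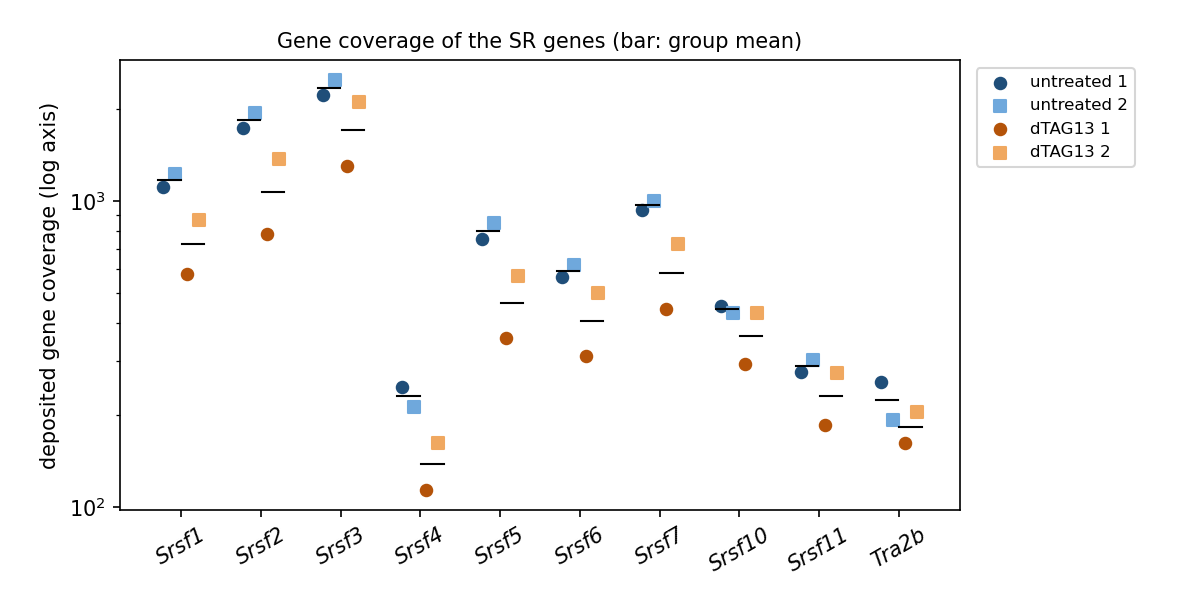
Deposited gene coverage (vertical log axis, not scaled to library depth) of each SR gene (horizontal axis) in the 4 libraries, with a black bar at each group mean. The dTAG13 replicate 1 circle is the lowest point of every gene, and Tra2b is the gene in which the dTAG13 and untreated libraries overlap.

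The mean share of A left unconverted was lower with dTAG13 in 9 of the 10 SR genes, but no gene passed the test. This share is 100% minus the deposited conversion rate of the gene and counts methylated and incompletely converted A together. On the log2 odds scale the change was below 0 in 9 of the 10 SR genes and in 9607 of all 12520 genes. Its median was -0.22 over the SR genes and -0.30 over all genes. The dTAG13 pair lay wholly below the untreated pair in 5 of the 10 SR genes, close to the 40.9% of all genes. It lay wholly above in 1 of the 10, against 6.05% of all genes. With limma, 0 of 10 SR genes and 0 of 12520 genes (0%) passed an adjusted p of 0.05, and 0 SR genes and 1540 genes (12.3%) had an unadjusted p under 0.05.

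Srsf5 showed the largest difference of the 10 genes, with 5.14% and 4.86% unconverted A without and 3.28% and 3.33% with dTAG13. Its pairs were tight and separate, and the log2 odds change was -0.62 ± 0.26 (SE, n = 2 per group, limma adjusted p 0.425). The part of this difference in the higher number of listed Srsf5 positions was not tested. Srsf10 went from 3.16% and 2.63% to 2.08% and 2.17%, a change of -0.45 ± 0.28 (adjusted p 0.532). Srsf6 went from 3.27% and 3.64% to 2.31% and 2.90% (-0.43 ± 0.29, adjusted p 0.562, and -0.26 without dTAG13 replicate 1). Srsf2 and Srsf4 were the other genes with separate pairs, at 3.26% and 3.13% against 2.73% and 2.59% in Srsf2 and at 3.89% and 4.06% against 3.42% and 3.69% in Srsf4. Srsf11 was the exception, with 2.62% in both untreated libraries and 2.65% and 2.84% with dTAG13 (0.07 ± 0.27, adjusted p 0.928, and 0.017 without dTAG13 replicate 2). Srsf1, Srsf3, Srsf7 and Tra2b overlapped between groups. Relative to the median gene of each library, the log2 odds change was above 0 in Srsf1, Srsf2, Srsf3, Srsf4, Srsf7 and Srsf11. It was largest in Srsf11 (0.39) and below 0 in Srsf5, Srsf6, Srsf10 and Tra2b, with a median of 0.026 over all genes.

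**Figure D3:**
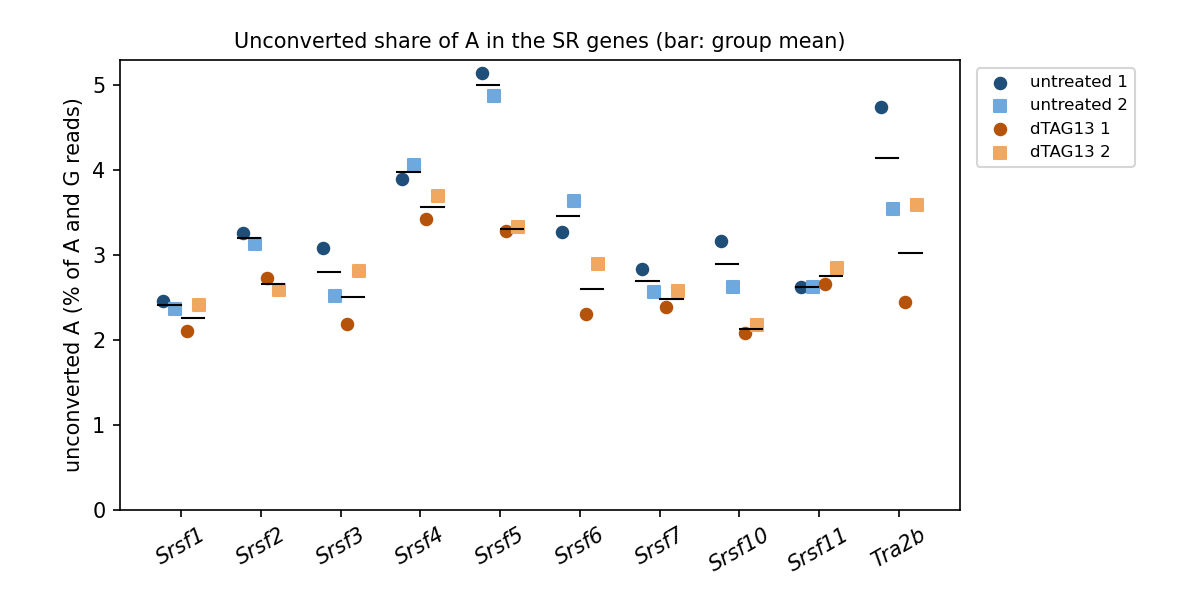
Unconverted A in percent (vertical axis) of each SR gene (horizontal axis) in the 4 libraries, with a black bar at each group mean. Srsf5 is at 4.86% or more without and 3.33% or less with dTAG13, Srsf11 is slightly higher with dTAG13, and the spread between the replicates of Tra2b is as wide as the difference between its groups.

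Most listed positions of the SR genes had low levels. Positions at 40% or more made up 10.4% (Wilson 95% interval 8.05 to 13.4%) and 10.7% (8.15 to 14.04%) of the SR positions without dTAG13 and 14.3% (11.3 to 17.9%) and 15.6% (12.5 to 19.3%) with it. Over all genes these shares were higher, at 36.6% and 34.8% without and 38.3% and 38.8% with dTAG13. The SR positions were also read more deeply, with library medians of 163 to 242.5 reads against 75 to 91 over all positions. The shares were not compared at equal depth, and the part of depth in this difference was not tested. The numbers of SR positions at 40% or more were 52 and 46 without and 61 and 68 with dTAG13, so the dTAG13 pair was the higher one. Over all genes these numbers were 95480 and 94786 without and 68482 and 78328 with dTAG13. At 90% or more they were 17 and 11 against 9 and 18, and the groups overlapped. The positions at 90% or more were also the thinnest, with a median of 31 to 43 reads per library against 240.5 to 374.5 reads for the positions at 10 to 20%. Whether PCR duplicates were removed is not stated, so intervals cover counting error only.

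Without dTAG13, Srsf11 held more positions at 40% or more than any other SR gene, 16 and 14, against 9 and 6 with dTAG13. Srsf10 had 12 and 6 without and 14 and 12 with dTAG13. Srsf1 had 9 and 1 without and 9 and 15 with dTAG13, and Srsf6 had 1 and 4 against 10 and 6. Srsf5 had 1 and 0 without and 3 and 2 with dTAG13, and Srsf7 had 2 and 0 against 3 and 4. Srsf2 had 0 and 6 without and 4 and 6 with dTAG13, and Srsf3 had 2 and 3 against 4 and 3. Srsf4 had 5 and 5 against 5 and 8, and Tra2b had 4 and 7 against 0 and 6. These numbers per gene were not tested, and the share of all genes with separate pairs at this level was not counted. Listed positions lay close together in the SR genes: the median gap to the next one in the same gene was 42.5 and 39.5 nt without and 50 and 37 nt with dTAG13, against 53 to 68 nt over all genes. These gaps were not compared at equal depth either.

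Few SR positions recurred between libraries. Of the 1563 positions, 1365 (87.3%) appeared in a single library, 175 in 2 libraries, 18 in 3 libraries and 5 in every library. Both untreated libraries listed 56 positions, which is 11.2% of one library and 13.1% of the other, and both dTAG13 libraries listed 37 (8.67% and 8.49%). Mixed pairs shared 33 to 57, and the largest of these numbers was for untreated replicate 1 with dTAG13 replicate 2. Of the SR positions with at least 50 reads in untreated replicate 1, untreated replicate 2 listed 11.2% (50 of 447, Wilson 95% interval 8.59 to 14.4%). In dTAG13 replicates 1 and 2, 7.16% (5.12 to 9.93%) and 12.3% (9.58 to 15.7%) of them were listed. The second dTAG13 library listed 55 of these positions and the other untreated library 50. With untreated replicate 2 as the reference, the share in untreated replicate 1 was 13.6%, above the 8.66% and 9.65% in dTAG13 replicates 1 and 2. The share in dTAG13 replicate 1 was the lowest with either reference. Over all genes the same shares were 11.1% in untreated replicate 2 and 6.00% and 6.38% with dTAG13.

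The level of a replicated position often differed between replicates. At the 56 SR positions shared by the untreated pair the median difference between replicates was 7.51 percentage points, and at 10 of them it exceeded 20 points. At the 37 positions of the dTAG13 pair it was 5.49 points, with 7 over 20 points. Of the 56 positions replicated without dTAG13, 41 (73.2%, Wilson 95% interval 60.4 to 83.0%) were listed in neither dTAG13 library, against 79.99% over all genes. In the reverse direction, 24 of the 37 positions replicated with dTAG13 (64.9%, 48.8 to 78.2%) were listed in neither untreated library, against 68.8% over all genes. Absence from the other group was thus common in both directions.

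Of the 56 positions replicated without dTAG13, 8 had a mean level of 40% or more, and 7 of these 8 (87.5%) were listed in neither dTAG13 library, close to the 85.8% of such positions over all genes. The remaining one lies in Srsf4. In all, 32 recurrent positions are described below: those listed in 3 or 4 libraries and those replicated in a group at a mean of 40% or more with at least 20 reads in each library. Coordinates are those of the tables, whose gene positions fit the mouse build GRCm39 and not the mm10 named in the submitters' processing notes. No annotation of that build was used here, so exon, intron and UTR were not assigned, and distances are given to the gene's outermost listed positions on its own strand.

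The largest difference in level among the 32 was in Srsf4, at chr4:131628802 (plus strand), 220 nt before the most 3′ listed position of the gene. Its level was 97.3% (Wilson 95% interval 95.2 to 98.5%, 403 reads) and 83.5% (78.6 to 87.4%, 272 reads) in the untreated libraries and 11.5% (7.30 to 17.6%, 148 reads) in dTAG13 replicate 1. It was not listed in dTAG13 replicate 2, which listed another position 16 nt away with 176 reads. Both untreated libraries were thus high, and the one dTAG13 value was close to the listing limit. The quasi-binomial model over the 3 libraries that listed it gave a change of -78.9 points with an unadjusted p of 0.0335 and an adjusted p of 0.368. That fit called 0 of 4260 sites (0%), with 475 at an unadjusted p under 0.05.

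Srsf4 had a second highly methylated position nearby, at chr4:131628998, 24 nt before its most 3′ listed position. The level there was 96.0% (93.3 to 97.6%, 347 reads) and 66.7% (52.5 to 78.3%, 48 reads) without dTAG13. Neither dTAG13 library listed it, and dTAG13 replicate 1 listed 3 positions within 50 nt with 25 to 287 reads, whereas dTAG13 replicate 2 listed 0 there. These 3 included a position at 100% with 25 reads and one at 82.4% with 34 reads, values picked out after they were seen. From 400 nt before to 250 nt after chr4:131628802 the libraries listed 11 and 8 positions without and 13 and 13 with dTAG13. Of these, 3 and 2 without and 2 and 3 with dTAG13 were at 40% or more. Lower positions of Srsf4 recurred at chr4:131601075 (17.2% and 11.4% without, 20.9% in dTAG13 replicate 2) and at chr4:131628738 (11.4% and 21.3% without, 16.6% in dTAG13 replicate 1). RefSeq places the gene model Gm12992 over Srsf4. Its strand was not checked, so whether reads listed under Srsf4 could belong to it is not known.

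**Figure D4:**
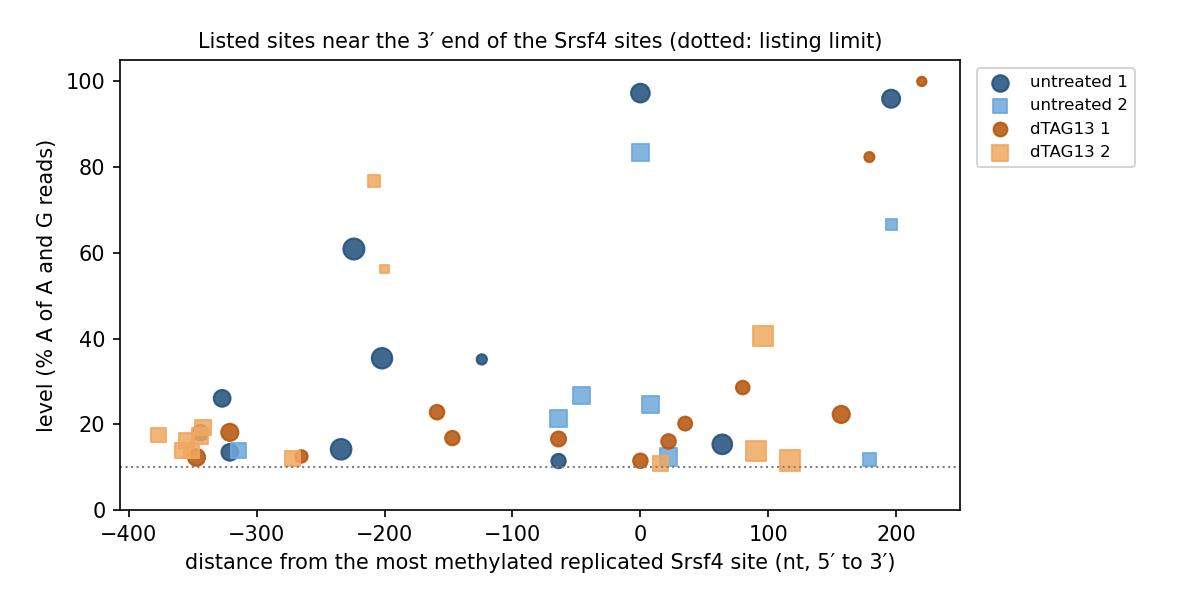
Level in percent (vertical axis) of every listed position of Srsf4 from 400 nt before to 250 nt after its most methylated replicated position (horizontal axis, distance in nt), by library. Marker area grows with the square root of the reads and the dotted line is the listing limit of 10%. At distance 0 the untreated libraries are at 97.3% and 83.5% and dTAG13 replicate 1 is at 11.5%.

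The other positions replicated without dTAG13 at a mean of 40% or more were listed in neither dTAG13 library. In Srsf1, chr11:87944209 (plus strand, 334 nt before the most 3′ listed position) was at 56.0% and 28.9% with 182 and 190 reads. In Srsf2, chr11:116742766 (minus strand) was at 39.7% and 50.7% with 126 and 140 reads. In Srsf7, chr17:80512088 (minus strand) was at 57.9% and 33.6% with 38 and 146 reads. The Wilson intervals of the replicates overlapped in Srsf2 and were apart in Srsf1 and Srsf7, so replicate levels there differed by more than counting error.

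In Srsf10, chr4:135595073 (plus strand) was at 48.7% and 37.0% without dTAG13, with 226 and 127 reads. In Srsf11, chr3:157717650 (minus strand, 1010 nt before the most 3′ listed position) was at 60.2% and 39.9% with 294 and 248 reads. There both dTAG13 libraries listed 3 other positions within 50 nt, with 133 to 159 reads in replicate 1 and 204 to 274 reads in replicate 2. At the Srsf1 position the dTAG13 libraries listed 1 neighbour each within 50 nt, with 25 and 305 reads, at the Srsf7 position 1 each with 57 and 44 reads, and at the Srsf10 position 1 each with 25 and 66 reads. At the Srsf2 position dTAG13 replicate 1 listed 0 and replicate 2 listed 2, with 38 and 131 reads. In Tra2b, chr16:22084495 (minus strand, 133 nt after the most 5′ listed position) was at 100% and 32.0% with 23 and 75 reads, the widest gap between replicates. There dTAG13 replicate 1 listed 0 positions within 50 nt and replicate 2 listed 2, with 153 and 163 reads.

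In the other direction, 2 positions, both in Srsf2 on the minus strand, were replicated at a mean of 40% or more with dTAG13, and no untreated library listed either. Over all genes 78.3% of such positions were listed in neither untreated library. At chr11:116743563 the level was 94.9% (79 reads) and 46.2% (953 reads), and at chr11:116742430 it was 62.1% (124 reads) and 24.5% (94 reads). Within 50 nt of the first one untreated replicate 1 listed 1 position, with 299 reads, and untreated replicate 2 listed 0. Within 50 nt of the second one they listed 2 and 3 positions, with 53 to 208 reads. RefSeq has Mfsd11 overlapping Srsf2, and its strand was not checked. Of the other Srsf2 positions, 3 were listed in 3 libraries. At chr11:116743844 the level was 33.8% and 32.4% without and 23.4% in dTAG13 replicate 1. At chr11:116741421 it was 12.0% in untreated replicate 1 against 24.2% and 10.2%, and at chr11:116743602 it was 10.0% against 17.3% and 12.6%.

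**Figure D5:**
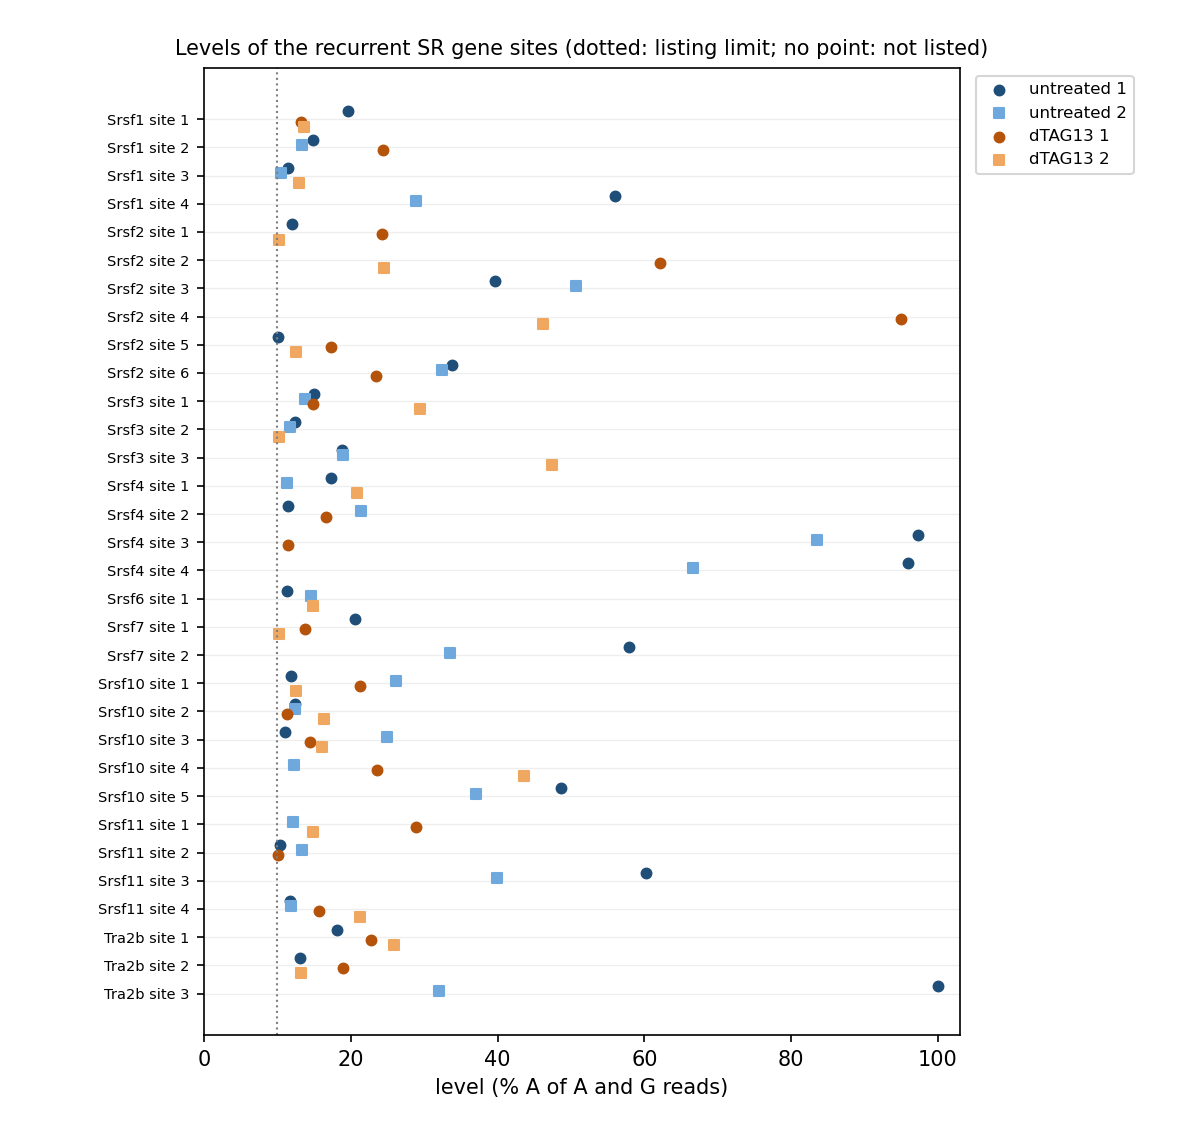
Level in percent (horizontal axis) of the 32 recurrent SR gene positions (vertical axis, numbered by rising coordinate within each gene) in each library that listed them. The 3rd position of Srsf4 has both untreated libraries at 83.5% or more and dTAG13 replicate 1 at 11.5%, while most positions listed in 3 or 4 libraries lie between 10% and 30% in both groups.

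Positions listed in all 4 libraries were low in both groups. All 5 met the minimum of 20 reads in each library and could be tested with the quasi-binomial model, fitted to 2321 sites. At an adjusted p of 0.05, 2.28% of these sites passed, 2.2% with a lower and 0.0862% with a higher level after dTAG13. Of the 5 SR positions 0 passed, and 1 had an unadjusted p under 0.05, as had 9.35% of all tested sites. The dTAG13 pair lay wholly below in 0 of the 5, against 19.4% of all tested sites. A tested site had to be listed at 10% or more in every library, and the lower untreated level of these 5 was 13.75% or less, so the listing left little room for a lower level to be seen. That one was chr3:157728492 in Srsf11 (minus strand), at 11.7% and 11.8% without and 15.6% and 21.2% with dTAG13, with 423 to 881 reads. The dTAG13 pair lay wholly above, as at 17.8% of all tested sites, and the change of 6.65 points had an unadjusted p of 0.0297 and an adjusted p of 0.407. It was 3.85 points without dTAG13 replicate 2 and 9.44 points without dTAG13 replicate 1. Fisher's exact test on summed reads, which ignores the spread between replicates, gave this position an adjusted p of 4.68e-05.

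In Srsf3, chr17:29258658 (plus strand) was at 15.03% and 13.8% without and 14.9% and 29.4% with dTAG13, with 143 to 326 reads. The difference came from dTAG13 replicate 2, and the quasi-binomial adjusted p was 0.813, against 0.035 in the pooled Fisher's exact test. Without dTAG13 replicate 1 the change was 14.98 points in place of 7.72, and without dTAG13 replicate 2 it was 0.47 points.

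Srsf10 had 3 tested positions within 18 nt, all within 71 nt of its most 5′ listed position. At chr4:135583521 (plus strand) the level was 11.8% and 26.1% without and 21.2% and 12.5% with dTAG13, with 721 to 1892 reads. At chr4:135583538 it was 11.004% and 24.9% without and 14.5% and 16.1% with dTAG13. At both, untreated replicate 2 was the highest library, and the untreated Wilson intervals were apart. At chr4:135583535 it was 12.4% and 12.4% without and 11.4% and 16.3% with dTAG13. The changes were -2.08, -2.66 and 1.41 points, with adjusted p of 0.986, 0.997 and 0.837. Without untreated replicate 2 the first and second of these changes were 5.09 and 4.28 points. Reads summed over the 3 positions gave Srsf10 a level of 11.7% and 21.1% without and 15.6% and 15.1% with dTAG13 (adjusted p 0.997). Of the 1016 genes with a tested site, 4.53% passed with a lower and 0% with a higher level in this gene test, and 0 of the 3 SR genes tested (Srsf3, Srsf10 and Srsf11) passed, with 0 at an unadjusted p under 0.05, against 13.9% of all genes tested.

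The positions listed in 3 libraries were mostly low as well. In Srsf10, chr4:135592408 was at 12.3% in untreated replicate 2 and at 23.6% and 43.6% with dTAG13, with 236 to 268 reads. In Srsf3, chr17:29261834 was at 18.8% and 19.0% without and 47.4% in dTAG13 replicate 2, with 69 to 221 reads. These were the SR positions listed in 3 libraries with the largest positive difference, and dTAG13 replicate 2 was the highest library in each. In the quasi-binomial fits over the 3 listing libraries the change was 21.3 points in Srsf10 and 28.5 points in Srsf3. Neither position passed. In each fit 1 group holds a single library, so the spread of that group could not be measured. The most deeply read of the 32 positions was chr17:29261139 in Srsf3, at 12.4% and 11.8% without and 10.2% in dTAG13 replicate 2, with 3609 to 5227 reads.

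In Srsf7, chr17:80511658 was at 20.5% in untreated replicate 1 and at 13.75% and 10.2% with dTAG13. In Srsf1, chr11:87942973 was at 19.6% against 13.2% and 13.6%, and its neighbour chr11:87942983 was at 14.9% and 13.3% without and 24.4% in dTAG13 replicate 1, which had 41 reads there and a Wilson interval of 13.8 to 39.3% that overlaps those of both untreated libraries. In Tra2b, chr16:22073198 was at 18.1% in untreated replicate 1 and at 22.7% and 26.0% with dTAG13, and chr16:22073204 was at 13.1% against 19.0% and 13.2%. The 4 other such positions (chr11:87943831 in Srsf1, chr2:162778758 in Srsf6, and chr3:157716918 and chr3:157717627 in Srsf11) lay between 10.1% and 28.8% in every library that listed them. Srsf5 had no position in 3 or more libraries: of its 71 listed positions 64 were listed in 1 library and 7 in 2.

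A wider list of 34 splicing genes was set beside the SR genes. It holds other SR and SR-related proteins (such as Srsf9, Tra2a, Srrm2 and Son), the SR protein kinases Srpk1, Srpk2 and Clk1 to Clk4, the U2AF subunits, the SR import receptor Tnpo3 and decay factors such as Upf1. All 34 were listed in at least 1 library, and 33 were tested for coverage, listed positions and conversion. In the number of listed positions, the dTAG13 pair lay wholly below the untreated pair in 20 of 33 genes (44.6% of all genes) and wholly above in 1 (4.53% of all genes), with a median log2 change of -0.39, against 0.05 in the 10 SR genes. In coverage relative to the median gene it lay below in 20 (29.2% of all genes) and above in 1 (17% of all genes), with a median log2 change of -0.18 against -0.57 in the SR genes. With limma 0 of the 33 passed an adjusted p of 0.05 in listed positions, coverage or conversion, with 4, 5 and 3 genes at an unadjusted p under 0.05, against 18.5%, 12.7% and 12.3% of all genes.

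The wider list was put together with earlier results of these data known. In level, 1 of the 7 tested sites of the wider list passed with a lower level, against 2.2% of all tested sites, and 0 passed with a higher level, against 0.0862%. Over the 7 sites the difference was below 0 at 3 and above 0 at 4. The site that passed lies in Son, whose product is a large scaffold protein of nuclear speckles, at chr16:91455475 (plus strand). Its level was 81.0% and 79.3% without and 33.5% and 38.0% with dTAG13, with 272 to 502 reads. Its mean was 80.1% ± 1.19 without and 35.8% ± 3.25 with dTAG13 (SD, n = 2 each), a change of -44.4 points with a quasi-binomial adjusted p of 0.00895. The adjusted p was 0.117 with the replicate number as a block and 0.151 to 0.235 in the fits that left out 1 library, in which no site of the whole table passed.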

How the data were processed

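GLORI site tables of 2 untreated and 2 dTAG13 libraries were used, one per library, grouped by sample title. The deposited counts are A and G reads, and A reads, at each called position. The deposited fractions are the level (A over A and G reads) and the conversion rate of the gene. The deposited p-value of the authors was used only to describe the listing. The gene coverage signal is deposited without scaling to depth. Per the submitters' processing notes the build is mm10, but 0 of the 1563 SR positions fell inside the interval of their gene in RefSeq GRCm38. Aligner and caller are not given in the sources used here. Sequences around the sites were not analysed here.

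Site and gene levels were tested with a quasi-binomial model of A and G reads (dispersion moderated with limma 3.58.1 squeezeVar and held at 1 or above, two-sided F test) at sites with at least 20 reads in all 4 libraries. Listed positions (log2, 1 added), coverage (log2, median-centred) and conversion (log2 odds) were tested with limma over 12520 genes, with edgeR 4.0.16 as an alternative. All p-values were adjusted by Benjamini-Hochberg over the whole table, threshold 0.05. Code was tested on simulated data. The members and lists were chosen with earlier results of these data known. Positions were named if listed in 3 or 4 libraries, or replicated in a group at a mean of 40% or more with at least 20 reads, and wider-list genes only if a test passed. With 2 libraries per group no library could be tested as an outlier. One retinal progenitor marker of the list is not reported here.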

Additional observations from a re-analysis of the deposited data

How the results depend on the processing

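No SR gene or position passed under any alternative except Fisher's exact test on summed reads, which called the tested positions of Srsf3 and Srsf11. The number of sites called in level was 53 over all genes, and became 531 with that test, 0 with the replicate block and 0 to 0 in the fits that left out 1 library. Genes called in level went from 46 to 0 with the replicate block and to 0 to 0 with 1 library left out. These fits have 1 residual degree of freedom. Listed positions gave 48 genes with edgeR and 81 with edgeR over genes with at least 10 listed positions (added after the data were seen), against 0. Coverage gave 15 genes without centring, with the median of all genes at -0.15 (log2), against 0. The share of SR positions of untreated replicate 1 listed with dTAG13 was 9.73% on average, and 4.69% at levels of 40% or more, against 21.9% in untreated replicate 2. The cause of these moves was not tested.

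Direction turned in some small differences. For listed positions (log2) it became -0.021 in Srsf1 and -0.013 in Srsf6 with at least 50 reads, 0.29 in Srsf3 at levels of 20% or more, and 0.55, 0.37 and 0.29 in Srsf10, Srsf3 and Srsf4 at 40% or more. With edgeR it became 0.0044, 0.30 and 0.20 in Srsf10, Srsf3 and Srsf4, and the same with the filter on 10 positions (0.0044, 0.30 and 0.20). Conversion centred on the median gene became 0.22, 0.050, 0.15, 0.15 and 0.20 in Srsf1, Srsf2, Srsf3, Srsf4 and Srsf7. Leaving out 1 library gave these ranges: listed positions -0.27 to 0.35 in Srsf1, -0.19 to 0.44 in Srsf2, -0.39 to 0.056 in Srsf3, -0.037 to 0.16 in Srsf6 and -0.11 to 0.23 in Tra2b; coverage -0.44 to 0.032 in Tra2b; conversion -0.36 to 0.019 in Srsf3. For levels (points) they were -9.26 to 5.09, -1.06 to 3.89 and -9.61 to 4.28 at the Srsf10 positions 135583521, 135583535 and 135583538, -4.02 to 3.61 in Srsf10 as a gene and -0.54 to 8.36 in Srsf3. Same-numbered libraries did not deviate together over genes (correlation 0.0023 for coverage, -0.0044 for listed positions and 0.0083 for conversion). With 2 libraries per group, this cannot tell whether same-numbered libraries were prepared together.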
